A study of Mus musculus with 12 samples.

Results

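The fatty acid synthesis enzymes and Srebf1 are 10 genes of mouse liver, taken by symbol from the deposited expression table. They are Srebf1, Acly, Me1, Acaca, Acacb, Fasn, Elovl6, Scd1, Elovl5 and Thrsp, out of 55487 rows in the table and 11344 genes tested. All 10 were measured, none shared its symbol with another row, and all 10 passed the filter on low values (at least 1 TPM in at least 6 of 12 libraries), with at least 1 TPM in all 12. TPM gives transcript abundance scaled for transcript length and library total, so levels can be compared between genes within a library. Each value is a share of the library total. A comparison between libraries therefore also depends on the other transcripts, as described below for the acute-phase genes. The members were named by their function and not by values from these libraries, though earlier results of the same data were known when the list was made.

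The libraries were made from total RNA of liver, 6 labelled control and 6 labelled SAP, for severe acute pancreatitis. All mice were Balb/c, wild type and 6 weeks old. The SAP mice received caerulein, a cholecystokinin analogue that overstimulates the acinar cells of the pancreas, with dose, route and interval not named in the labels. Controls carry no other description of their treatment. Per the labels the libraries are numbered control 3 to 8 and SAP 10 to 15. That each came from a separate mouse is not stated, so each p-value reflects only the spread among these libraries, which may be technical. The design text speaks of 2 mouse models without saying which libraries belong to which.

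De novo lipogenesis turns surplus carbohydrate into fatty acids. Citrate leaves the mitochondria and is cleaved to acetyl-CoA, which is carboxylated to malonyl-CoA and joined by fatty acid synthase into palmitate, with NADPH as the reductant. Palmitate is then lengthened and desaturated before it enters triglyceride and membrane lipid. In liver the pathway is controlled mainly at transcription, by the sterol regulatory element binding protein SREBP-1c downstream of insulin and the liver X receptors, and by the sugar-sensing factor ChREBP (gene Mlxipl).

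Of the promoters, 4 are shown for the members at the ends of the range of changes and for the regulator. They are those of Thrsp, which fell most, Fasn, which fell next, Elovl5, which fell least, and the Srebf1 start that lies farthest downstream. Each stretch runs 5′ to 3′ from 250 bases before to 50 bases after a RefSeq transcription start on GRCm38.p6. Of the 10 genes, 9 had entries in that table, with 12 starts in all, and Scd1 was not among them. Capitals mark matches on either strand to the E-box CACGTG, the NF-Y box CCAAT or the GC box GGGCGG. The stretches are chr11:120824498-120824797 (minus strand, Fasn), chr7:97417501-97417800 (minus strand, Thrsp), chr9:77917115-77917414 (plus strand, Elovl5) and chr11:60210422-60210721 (minus strand, Srebf1).
Fasn: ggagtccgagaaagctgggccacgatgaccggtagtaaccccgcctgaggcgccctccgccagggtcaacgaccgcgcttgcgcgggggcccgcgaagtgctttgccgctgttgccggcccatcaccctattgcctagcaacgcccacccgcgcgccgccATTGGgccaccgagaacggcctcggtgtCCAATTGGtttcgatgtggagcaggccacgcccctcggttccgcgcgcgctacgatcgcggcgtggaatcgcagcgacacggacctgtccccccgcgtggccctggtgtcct
Thrsp: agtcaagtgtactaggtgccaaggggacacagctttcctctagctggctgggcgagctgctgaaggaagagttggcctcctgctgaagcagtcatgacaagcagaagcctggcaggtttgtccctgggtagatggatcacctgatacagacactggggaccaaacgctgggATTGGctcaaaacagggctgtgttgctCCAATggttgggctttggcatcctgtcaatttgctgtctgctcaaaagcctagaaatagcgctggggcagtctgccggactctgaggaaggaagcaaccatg
Elovl5: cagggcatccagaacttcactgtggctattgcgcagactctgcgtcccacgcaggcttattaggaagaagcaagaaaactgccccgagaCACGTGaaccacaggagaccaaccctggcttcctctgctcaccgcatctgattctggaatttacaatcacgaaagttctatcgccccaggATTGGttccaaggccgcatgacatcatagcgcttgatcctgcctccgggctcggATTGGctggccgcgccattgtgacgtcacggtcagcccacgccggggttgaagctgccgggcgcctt
Srebf1: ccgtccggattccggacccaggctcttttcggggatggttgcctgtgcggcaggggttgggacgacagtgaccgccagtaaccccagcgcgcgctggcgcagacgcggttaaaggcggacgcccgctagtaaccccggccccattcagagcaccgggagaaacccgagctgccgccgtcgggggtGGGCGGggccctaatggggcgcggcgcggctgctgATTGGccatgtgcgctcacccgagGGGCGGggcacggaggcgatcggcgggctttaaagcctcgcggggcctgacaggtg

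The NF-Y box, which binds a factor that works beside SREBP at many lipid gene promoters, was in 8 of the 12 member promoters, against 37.4% of all 32851 promoters of the same length. In Fasn it occurred 3 times, at -90, -62 and -59 from the start, and the last pair lie on opposite strands and overlap. In Thrsp it stood at -79 and -52. The E-box was in 1 of the 12, that of Elovl5 at -161, against 7.15% of all promoters. The GC box was in 4 of the 12, against 35.7%. The sterol regulatory element, searched as TCACNCCAC on both strands, was in 0 of the 12 and in 1.24% of all promoters. A match describes letters and not a bound site, and the lack of a match says only that these letters are not in this window.

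All 10 genes fell in SAP liver. Each was past the threshold (limma, Benjamini-Hochberg adjusted p under 0.05 over all 11344 genes), where 25.0% of all genes tested were lower and 19.5% were higher. For each of the 10, every SAP value lay under every control value, which held for 15.1% of genes tested. A fall of at least 1 on the log2(TPM + 1) scale that was also past the threshold was found for 9 of the 10, against 5.43% of genes tested. The median change was -1.84 for the 10 genes and -0.03 for all genes tested. On this scale the added 1 makes the change of a gene with few TPM look smaller than it is.

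**Figure D1:**
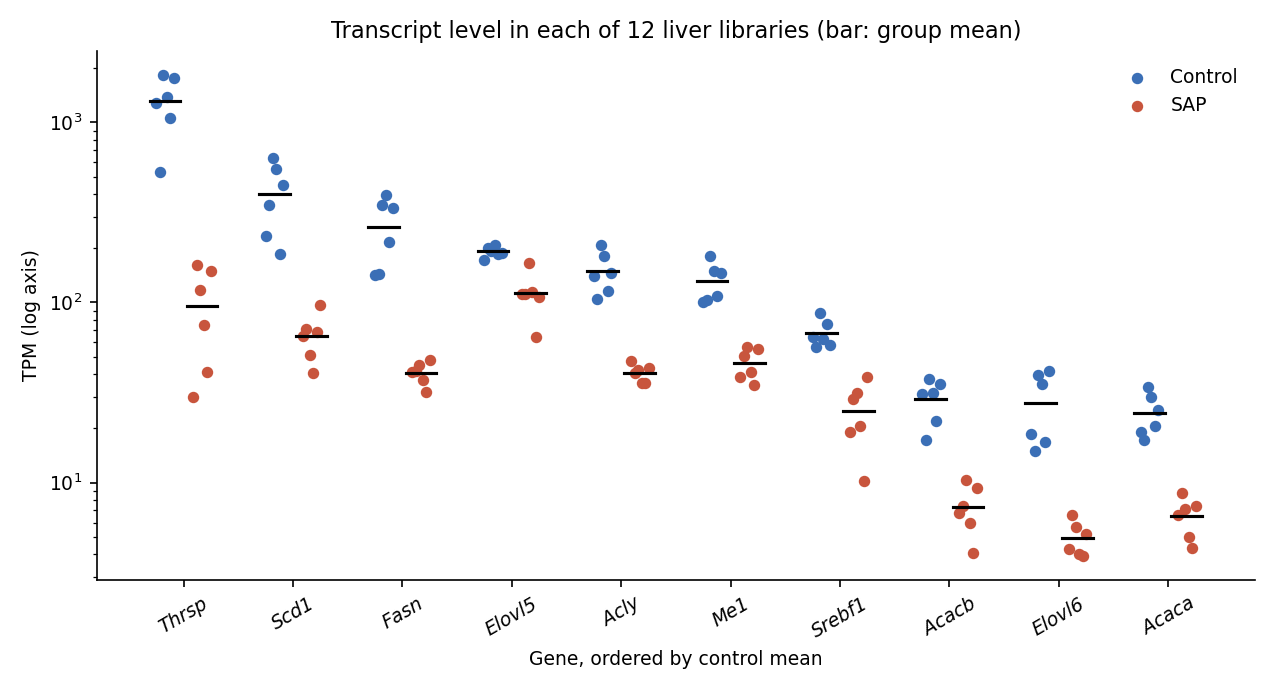
TPM on a log axis for each gene in 6 control (blue) and 6 SAP (red) liver libraries, with black bars at the group means. For every gene all red points lie below all blue points, with the widest gap for Thrsp (means 1310 and 95.6 TPM) and the narrowest for Elovl5 (192 and 113 TPM).

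Srebf1 encodes the SREBP-1 transcription factors, of which the 1c form drives the lipogenic enzymes. It was at 56.3, 63.5 and 87.2 TPM (lowest, median and highest, the order used below) in controls and at 10.2, 24.95 and 38.6 TPM in SAP. The groups did not overlap, with control 5 highest and SAP 14 lowest. The mean fell from 67.5 ± 11.9 to 24.9 ± 10.2 TPM (SD, n = 6 each). On the log2 scale this was -1.50 ± 0.25 (SE, with limma adjusted p = 2.89e-04). In GENCODE M21 on GRCm38 the gene lies on the minus strand of chromosome 11 from 60199089 to 60222581. Its RefSeq entries hold 3 starts, and gene-level values do not separate them.

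Transcripts of both enzymes that supply carbon and reductant fell, with protein and activity not measured here. Acly, the ATP citrate lyase that makes cytosolic acetyl-CoA, was at 104, 142 and 209.6 TPM in controls and at 35.6, 41.5 and 47.1 TPM in SAP. Its log2 change was -1.81 ± 0.15 (SE, with limma adjusted p = 8.71e-07). The lowest control stood 2.21 times above the highest SAP library. Me1, the cytosolic malic enzyme that yields NADPH, was at 100.1, 127 and 182 TPM in controls and at 34.8, 45.9 and 56.7 TPM in SAP. The log2 difference was -1.48 ± 0.16 (SE, with limma adjusted p = 1.07e-05). SAP libraries kept on average 27.4% of the control Acly level and 35.1% of the control Me1 level.

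Transcripts of both acetyl-CoA carboxylases fell, and so did that of the synthase. Acaca, the cytosolic carboxylase whose malonyl-CoA feeds synthesis, was at 17.2, 22.9 and 33.8 TPM in controls and at 4.31, 6.88 and 8.77 TPM in SAP. Acacb, the carboxylase of the mitochondrial surface whose malonyl-CoA restrains fatty acid import, was at 17.2, 31.3 and 37.7 TPM in controls and at 4.08, 7.07 and 10.4 TPM in SAP. Log2 changes were -1.74 ± 0.18 for Acaca and -1.86 ± 0.22 for Acacb (SE, with limma adjusted p = 6.21e-06 and 1.50e-05). Fasn, the synthase that builds palmitate, was at 143, 276 and 392 TPM in controls and at 31.9, 41.2 and 48.2 TPM in SAP. Its log2 change was -2.56 ± 0.25 (SE, with limma adjusted p = 3.34e-06), and the lowest control lay 2.96 times above the highest SAP library. Controls spread more than SAP libraries, with a coefficient of variation of 41.8% against 14.1%.

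Elongation and desaturation genes ran from the strong to the mild end of the range. Elovl6, which lengthens palmitate to stearate, was at 14.9, 27.0 and 41.5 TPM in controls and at 3.93, 4.72 and 6.65 TPM in SAP, and its log2 difference was -2.17 ± 0.25 (SE, with limma adjusted p = 1.50e-05). Scd1, the stearoyl-CoA desaturase that makes oleate, was at 185, 399 and 636 TPM in controls and at 40.6, 66.7 and 96.8 TPM in SAP, and its log2 difference was -2.51 ± 0.29 (SE, with limma adjusted p = 1.56e-05). Both groups stayed apart for each gene, and SAP means were 17.8% and 16.3% of the control means. Elovl5, an elongase mainly of polyunsaturated fatty acids, was at 172, 191 and 209.5 TPM in controls and at 64.1, 112 and 166 TPM in SAP. It fell by the least of the 10, with a log2 difference of -0.81 ± 0.16 (SE, with limma adjusted p = 0.00118). SAP 12 at 166 TPM came within 1.04 times of the lowest control, and SAP 14 was lowest. The Elovl5 change was -0.48 in the 7 libraries with high Xist described below (limma adjusted p = 0.0359), -0.47 with quantile normalization and -0.40 with libraries rescaled outside the acute-phase genes.

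Thrsp, the thyroid hormone responsive protein Spot 14 that marks lipogenic tissue, fell most. It was at 532, 1335 and 1836 TPM in controls, the highest level of the 10 genes, and at 29.9, 96.1 and 162 TPM in SAP. Its log2 change was -3.91 ± 0.42 (SE, with limma adjusted p = 8.35e-06), the 13th largest decrease among the 11344 genes tested. SAP libraries differed by 5.40 times between SAP 10, the lowest, and SAP 11, the highest, the widest spread of the 10 genes in SAP. By size of decrease Fasn ranked 65th, Scd1 66th, Elovl6 101st and Elovl5 884th.

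**Figure D2:**
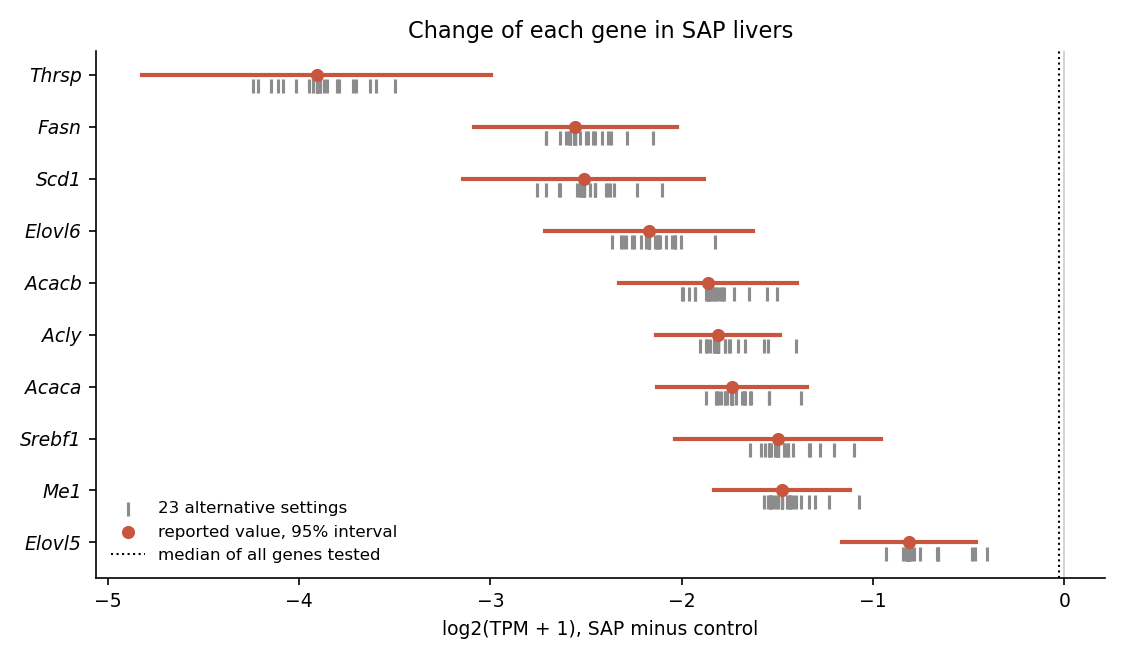
Log2(TPM + 1) change, SAP minus control, for each gene (red point) with its 95% interval (red line), and the values under 23 alternative settings (grey ticks). All intervals and ticks lie to the left of 0, from -3.91 for Thrsp to -0.81 for Elovl5, and the dotted line marks the median of all genes tested.

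Acute-phase transcripts, which the liver makes in inflammation, moved with the groups. Of the 28 listed, 26 were higher, against 19.5% of all genes tested, and Crp and Hamp were not past the threshold. The 26 take in A2m, which reached 1 TPM in 6 SAP libraries and 0 controls, so the filter fixed its direction. The 28 acute-phase genes listed for scaling held 3.49 to 4.05% of TPM in controls and 22.4 to 36.7% in SAP, highest in SAP 14. With libraries rescaled to the TPM outside that list, the median of all genes tested moved from -0.03 to 0.33, and of the genes called 83.8% were higher in place of 43.8% (6275 higher and 1213 lower, against 2211 and 2832). These are 55.3% and 10.7% of the genes tested. All 10 genes were still lower there and past the threshold, with log2 changes from -3.50 for Thrsp to -0.40 for Elovl5 (limma adjusted p = 9.09e-06 and 0.0170). Relative to the median of all genes in that setting the range ran from -3.83 to -0.73.

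Libraries also differed in RNAs that stay in the nucleus. Xist was at 4.59 to 17.1 TPM in control 5, SAP 11, SAP 13, SAP 14 and SAP 15 and at 49.1 to 60.7 TPM in the other 7. The same 5 libraries were the lowest for Malat1 (at most 8.19 TPM, where the rest had at least 26.2), for Neat1 (at most 9.98, the rest at least 12.0) and for Firre (at most 3.79, the rest at least 8.12). Of these 4 RNAs, Neat1 was lower in SAP (-1.24, limma adjusted p = 0.0419) and the others were not past the threshold. With this split as a term all 10 genes were lower and past the threshold. Of all genes called in that fit 51.4% were higher, and the median change of all genes tested was 0.03. All 10 were also lower and past the threshold in the 7 high Xist libraries alone (5 control, 2 SAP). There 16.1% of genes tested were lower (1830 lower and 2041 higher). In those 7, Fasn was at 143 to 392 TPM in controls against 40.9 and 44.7 TPM in SAP, and Srebf1 at 56.3 to 76.1 against 19.1 and 31.5 TPM.

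Markers of hepatocytes and other cells were read beside these changes, with their part in the results not tested. Of 8 hepatocyte markers 4 were lower (Alb, Ttr, Cps1 and Tat), 1 was higher (Apoa1) and 3 were not past the threshold (Apob, Hnf4a and Trf), against 25.0% lower and 19.5% higher of all genes tested. Their summed level was 92296 to 103585 TPM in controls and 51218 to 66771 TPM in SAP, with Alb alone at means of 65029 and 27673 TPM. In whole tissue, fewer cells of a type and less RNA per cell cannot be told apart. Neutrophil markers summed to 5.23 to 19.2 TPM in controls and 35.9 to 111 TPM in SAP. S100a8 and S100a9 were higher (2.93 and 3.13 on the log2 scale), and Csf3r was not past the threshold (0.45, limma adjusted p = 0.0881). Retnlg was tested only because all 6 SAP libraries reached 1 TPM where 0 controls did. The other 4 listed markers were too low to test. Their control and SAP means were 0.09 and 0.61 TPM for Cxcr2 and 0.27 and 0.285 TPM for Mpo. For Ngp they were 0.60 and 0.66 TPM, and for Camp 0.37 and 0.09 TPM.

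Fat cells also express this pathway. Of 8 adipocyte markers 3 were tested: Fabp4 rose from 15.1 ± 1.62 to 33.7 ± 6.02 TPM (1.09, limma adjusted p = 5.57e-06), Pparg rose by 0.40 (limma adjusted p = 0.00892) and Lipe was not past the threshold. The other 5 were at most 1.05 TPM in any library, with Lep at most 0.03, Plin1 at most 0.23 and Adipoq at most 0.63 TPM. The list summed to 24.5 to 30.1 TPM in controls and 37.0 to 56.8 TPM in SAP. Monocyte and macrophage markers summed to 109 to 171 TPM in controls and 81.6 to 157 TPM in SAP, with Clec4f and Lyz2 lower (-0.69 and -0.45), Itgam and Cd68 higher (1.996 and 0.66) and 2 of the 6 tested not past the threshold. Itgam reached 1 TPM in 6 SAP libraries and 0 controls, so the filter fixed its direction. Endothelial markers summed to 81.3 to 118 and 87.9 to 122 TPM, with Lyve1 and Pecam1 higher (1.25 and 0.38) and 4 of 6 not past the threshold. Bile duct markers summed to 2.28 to 3.46 and 1.75 to 4.11 TPM. Acinar markers of the pancreas summed to at most 9.52 TPM in controls and 0.95 TPM in SAP, and Prss1 was listed at 0 throughout.

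The order of the 10 levels differed between the groups. In controls the means ran from Thrsp (1310 TPM) through Scd1 (400.5), Fasn (263), Elovl5 (192), Acly (149), Me1 (131), Srebf1 (67.5), Acacb (29.2) and Elovl6 (27.7) to Acaca (24.3). Only Me1 over Srebf1 and Srebf1 over Acacb had ranges that did not overlap, and Acacb, Elovl6 and Acaca changed places between libraries. In SAP, Elovl5 came first (113 TPM), before Thrsp (95.6), Scd1 (65.5), Me1 (46.2), Acly (40.8), Fasn (40.7), Srebf1 (24.9), Acacb (7.31), Acaca (6.54) and Elovl6 (4.95), and every neighbouring pair overlapped. The 10 genes together took 1539 to 3602 TPM in control libraries and 298 to 561 TPM in SAP libraries. Thrsp made up 34.6 to 58.3% of that sum in controls and 8.07 to 30.6% in SAP.

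Ratios of a pair of transcripts within a library depend on library scaling only through the added 1, and 7 were compared between the groups with an exact two-sided permutation test, adjusted over the 7 (the smallest p the test can give is 0.00216). For the carboxylases the log2 ratio of Acaca to Acacb averaged -0.25 ± 0.27 over the control libraries and -0.12 ± 0.26 over the SAP libraries (SD of 6). The exact permutation test gave an adjusted p = 0.422, so no unequal change was detected, which does not show that they fell alike. Elovl6 fell more than Elovl5, the log2 ratio going from -2.86 ± 0.62 to -4.22 ± 0.37 (exact permutation test, adjusted p = 0.00303), and all 6 SAP libraries lay under the control range. Fasn fell more than Srebf1, the log2 ratio going from 1.85 ± 0.62 to 0.79 ± 0.46 (exact permutation test, adjusted p = 0.0126), with 5 of 6 SAP libraries under the control range.

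In the other 4 pairs the member fell relative to its paralog or partner. Srebf1 stood above its sterol-pathway paralog Srebf2 in every control (log2 ratio 1.56 ± 0.39) and was close to it in SAP (-0.19 ± 0.63, by the exact permutation test, adjusted p = 0.00303). Srebf2 itself was at 22.1 ± 2.66 TPM in controls and 26.5 ± 3.39 TPM in SAP, just past the threshold (log2 change 0.26, limma adjusted p = 0.0499), not past it in 12 of 23 alternative settings and at 0.66 with the acute-phase rescaling. Scd1 against its paralog Scd2, which was at 1.34 to 3.33 TPM in all libraries, went from 6.94 ± 0.72 to 4.28 ± 0.51. Me1 against G6pdx, which opens the NADPH-yielding pentose phosphate route, went from 5.27 ± 0.49 to 3.41 ± 0.43. Thrsp against Mid1ip1, its relative that promotes carboxylase polymerization, went from 4.57 ± 0.44 to 1.81 ± 0.77. The last 3 gave the same value of the exact permutation test (adjusted p = 0.00303), with all 6 SAP libraries under the control range. Mid1ip1 itself fell by 1.14 on the log2 scale (limma adjusted p = 5.08e-04), and the change was -0.75 with the acute-phase rescaling. In the high Xist libraries alone the 6 ratios other than Acaca to Acacb kept their direction, with differences from -3.15 to -1.04, but were not past the threshold (exact permutation test, adjusted p = 0.111), since 5 against 2 cannot give a p under 0.0952.

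**Figure D3:**
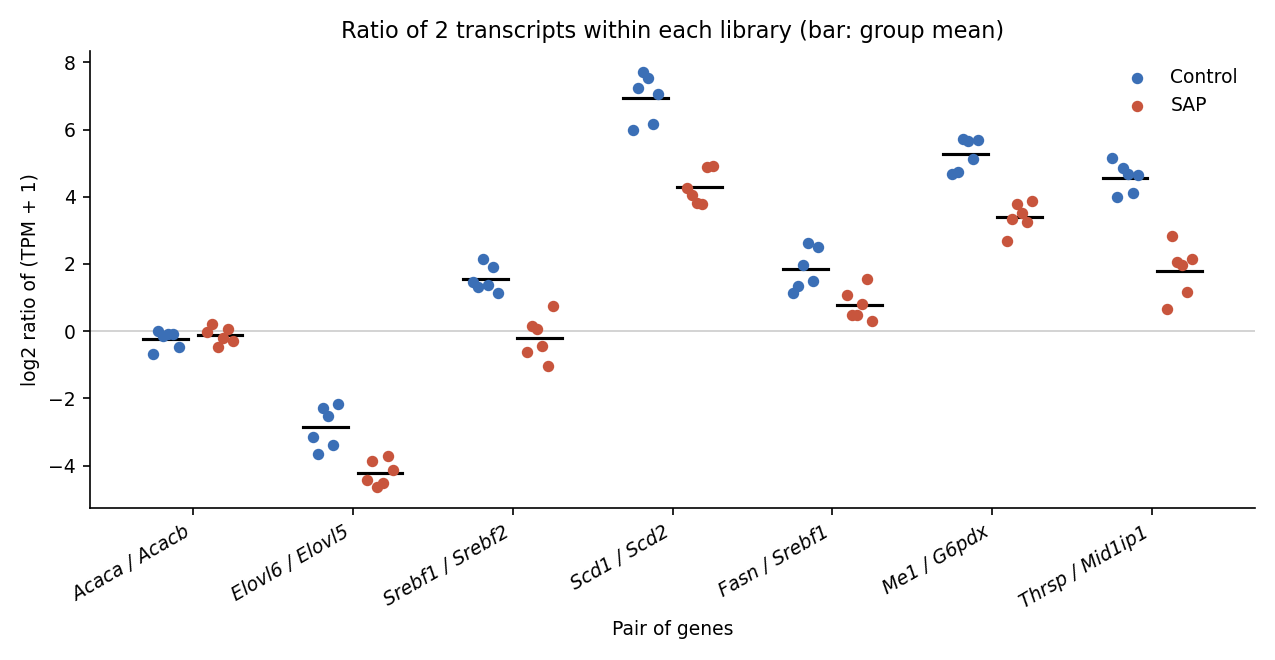
Log2 ratio of (TPM + 1) for 7 pairs of genes in each library, control in blue and SAP in red, with black bars at the group means. The groups separate fully for 5 pairs, nearly so for Fasn to Srebf1, and overlap for Acaca to Acacb.

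Within each group the genes varied together only in part. Control 5 was highest for 7 of the 10 genes and control 4 lowest for 6. In 8 of the 10 the 3 highest controls were control 5, 6 and 8, an arrangement found in 5.17% of all genes tested and noticed after the values were seen. Srebf1 and Elovl5 were the exceptions: control 7 had the next highest Srebf1 level after control 5, and control 6, 4 and 5 led for Elovl5. Among SAP libraries SAP 14 was lowest for 7 of the 10 genes, the highest values were shared by SAP 11, 12 and 15 with 3 genes each, and SAP 10 was highest for Acly. For these counts of highest and lowest libraries the share over all genes tested was not computed, so they are not a trait of the 10 genes. Levels were not rescaled. SAP 14 had the largest acute-phase share (36.7% of TPM) and the fewest genes at 1 TPM (10810), and the part of this in its low values was not tested.

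**Figure D4:**
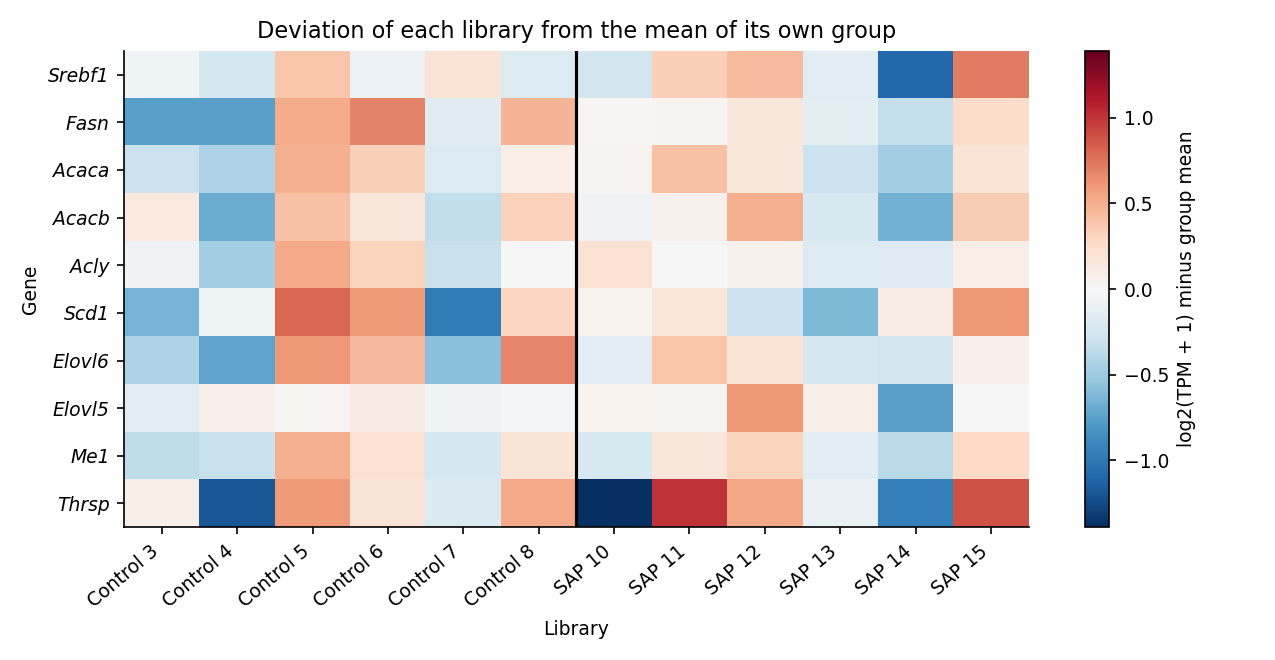
Heat map of log2(TPM + 1) minus the mean of the library's own group, genes in rows and libraries in columns, red above and blue below the group mean. Control 5 is above the mean for 10 of 10 genes, control 4 and control 7 for 1 each, SAP 11, 12 and 15 for 9 each, and SAP 14 for 1. Levels were not rescaled for library composition.

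Levels of Srebf1 and the 9 other genes were related within each group over 6 libraries, 18 relations in all. None was past the threshold after adjustment, by Pearson or by Spearman. In SAP, Srebf1 and Fasn had r = 0.95 (exact permutation p = 0.0111, adjusted p = 0.1) and rho = 0.94 (exact permutation p = 0.0167, adjusted p = 0.150), and r = 0.73 without SAP 14 and SAP 15. Srebf1 and Me1 had r = 0.94 (exact permutation p = 0.00833, adjusted p = 0.1) and rho = 0.94 (exact permutation p = 0.0167, adjusted p = 0.150), and r = 0.99 without the same pair. In controls the values were r = 0.31 and rho = 0.20 for Fasn (exact permutation p = 0.542 and 0.714) and r = 0.46 and rho = 0.37 for Me1 (exact permutation p = 0.386 and 0.497), and without control 5 and control 7 r was 0.15 for Fasn and 0.06 for Me1. Whether the relations differ between the groups was not tested. Levels were not rescaled here, so differences in library composition enter both genes of a relation. Acute-phase genes held 36.7% of TPM in SAP 14, the highest share of the SAP libraries.

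Over all 12 libraries, deviations from the group means were also compared with those of every gene tested, as a description and again without rescaling. The genes most like Srebf1 outside the list were Ormdl1 (r = 0.98), Lactb2 (0.97), Ociad1 (0.96), C1rl (0.95) and Sucla2 (0.95). Of the other 9 members the closest to Srebf1 was Thrsp (r = 0.72), which ranked 1100th. The genes most like Fasn outside the list were Pdha1 (r = 0.95), a subunit of pyruvate dehydrogenase, Hif1a (0.93), Bbs2 (0.89), Cyp17a1 (0.88) and Gm13775 (0.86). Among the members, Elovl6 was the closest to Fasn (r = 0.88, 4th of all genes tested), followed by Me1 (0.84, 12th) and Acaca (0.82, 15th).

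The other genes of the pathway were read from 6 lists, given here as counts from the test over all genes, with no test of the lists. Each count is to be read against the 25.0% of all genes tested that were lower and the 19.5% that were higher. The list for SREBP and liver X receptor control had 15 genes, among them Srebf2, the liver X receptor genes, Mlxipl and Usf2. Of the 15, 5 were lower, 2 higher and 8 not past the threshold, with a median of -0.10. The 33.3% lower is near the share of all genes tested, and the count takes in Ppargc1b. Insig1, which retains SREBP in the endoplasmic reticulum and is itself a target of it, fell from 223 ± 24.2 to 99.0 ± 20.4 TPM (log2 change -1.18, limma adjusted p = 6.03e-06), and Scap, the escort of SREBP to the Golgi, fell by 0.84 on the log2 scale. With the acute-phase rescaling these were -0.77 and -0.44. The coactivator gene Ppargc1b was at 1.40 ± 0.16 TPM in controls and 0.29 ± 0.32 TPM in SAP, and reached 1 TPM in 6 controls and 0 SAP libraries, so the filter fixed its direction. Mlxipl, encoding ChREBP and named after its values were seen, fell from 57.2 ± 10.2 to 16.9 ± 11.1 TPM (-1.91, limma adjusted p = 3.52e-04), and the change was -0.9995 in the high Xist libraries. The site proteases Mbtps1 (0.08) and Mbtps2 (0.18), Insig2 (-0.10) and the liver X receptor gene Nr1h3 (-0.13) were not past the threshold.

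Genes that supply citrate, acetyl-CoA and NADPH were lower in 10 of 14 cases and higher in 2, with 2 not past the threshold and a median of -0.88. The pyruvate dehydrogenase genes Pdhb and Dlat fell by 1.21 and 0.96 on the log2 scale, and the cytosolic malate dehydrogenase gene Mdh1 fell by 0.91. With the acute-phase rescaling the 3 changes were -0.80, -0.57 and -0.49. Pgd and Idh1, other sources of cytosolic NADPH, named after their values were seen, fell by 0.89 and 0.86 on the log2 scale (-0.49 and -0.45 with the rescaling). Acss2, which makes acetyl-CoA from acetate and was named after its values were seen, fell from 99.3 ± 24.3 to 20.7 ± 5.51 TPM (-2.22, limma adjusted p = 2.26e-06), more than any other gene of the list. G6pdx, at 2.37 ± 0.47 TPM in controls and 3.46 ± 0.98 TPM in SAP, was higher (0.39, limma adjusted p = 0.0386), and was not past the threshold in 7 of 22 alternative settings. H6pd, its counterpart in the endoplasmic reticulum, rose by 0.38 (limma adjusted p = 0.00800). With the rescaling G6pdx and H6pd were at 0.72 and 0.79.

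Of 12 tested elongation and desaturation partners 8 were lower, 0 higher and 4 not past the threshold, with a median of -0.40. The front-end desaturase genes Fads1 and Fads2 fell by 0.96 and 1.06 on the log2 scale, and Tecr, the reductase of the elongation cycle, fell by 0.63. With the acute-phase rescaling the 3 changes were -0.55, -0.65 and -0.22. A further 5 listed genes were too low to test, the highest value being 4.4 TPM. Of 11 tested genes for carboxylase control and malonyl-CoA use, Acacb included, 6 were lower, 1 higher and 4 not past the threshold, with a median of -0.25. Prkag2, a regulatory subunit gene of AMP-activated kinase, fell by 1.12 on the log2 scale. Cpt1a, the mitochondrial fatty acid import step that malonyl-CoA inhibits, was higher (0.34, limma adjusted p = 0.0346) and not past the threshold in 7 of 23 alternative settings, and was at 0.76 with the rescaling.

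Insulin and sugar signalling genes were lower in 7 of 13 cases, higher in 0, and not past the threshold in 6, with a median of -0.91. Txnip, a sugar-induced gene, fell from 67.6 ± 9.69 to 16.8 ± 3.95 TPM (-1.96, limma adjusted p = 3.20e-07). The pyruvate kinase gene Pklr fell by 1.76 on the log2 scale and Gckr fell by 1.43. Insr, Irs1, Irs2, Akt1, Akt2 and Pik3r1 were not past the threshold, with differences from -0.46 to 0.19.

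Genes of sterol synthesis are the main targets of SREBP-2. Of 20 tested, 6 were lower, 1 higher and 13 not past the threshold, with a median of -0.24, and 6 of 20 is near the 25.0% lower of all genes tested. Sc5d fell by 1.30 on the log2 scale, Pmvk by 0.81 and Stard4, a sterol carrier gene, by 0.64. Pmvk and Stard4 were at -0.41 and -0.24 with the acute-phase rescaling, and at -0.70 and -0.38 and not past the threshold in the high Xist libraries (limma adjusted p = 0.0679 and 0.0551). Sqle, the squalene epoxidase, named after its values were seen, was higher (0.71, limma adjusted p = 0.0213). Sqle was not past the threshold in 3 of 23 alternative settings, and was at 1.12 with the rescaling. In the high Xist libraries alone 1 of the 20 was lower and 0 were higher.

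The list counts depended on scaling. With libraries rescaled outside the acute-phase genes, where 10.7% of all genes tested were lower and 55.3% higher, lower and higher genes were 4 and 10 for SREBP and liver X receptor control, 8 and 4 for citrate and NADPH supply, 4 and 3 for elongation and desaturation partners, 3 and 3 for carboxylase control, 6 and 5 for insulin and sugar signalling and 4 and 4 for sterol synthesis. The corresponding counts for the 10 genes described here were 10 and 0 under that scaling.

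**Figure D5:**
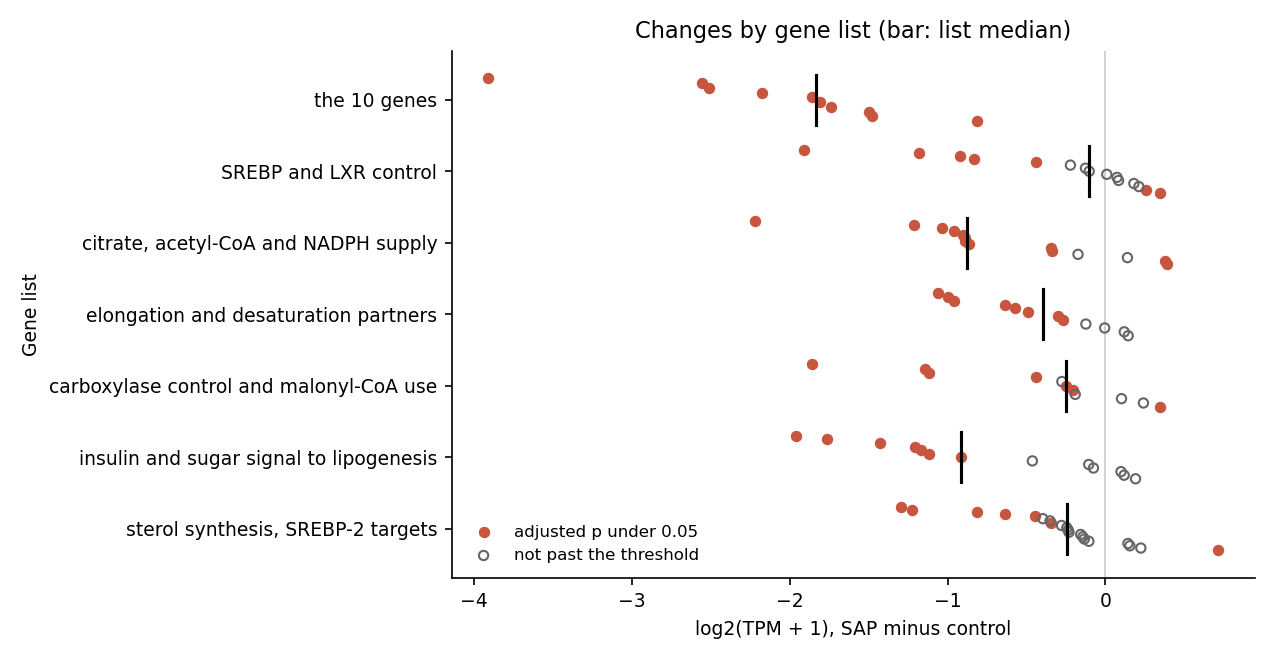
Log2(TPM + 1) change, SAP minus control, of each tested gene by list, filled where the adjusted p was under 0.05 and open where it was not, with a black bar at the list median. The 10 genes have a median of -1.84 and lie wholly left of 0, while the other 6 lists have medians from -0.91 to -0.10.

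Reads from overlapping genes cannot be separated without strand, and nothing in the labels says whether the authors' counting used strand. In GENCODE M21 the antisense gene Gm35986 overlaps Elovl6 (at most 16.5 TPM in any library), Gm11437 overlaps Acaca on the opposite strand (at most 9.56 TPM) and Rai1 overlaps Srebf1 on the opposite strand (at most 4.61 TPM). On GRCm38 Acaca (84129672 to 84401651), Acly (100476353 to 100528000), Fasn (120805846 to 120824547) and Srebf1 lie on chromosome 11. Elovl5 (77917364 to 77984519) and Me1 (86581371 to 86695953) lie on chromosome 9, Thrsp (97412938 to 97417730) on chromosome 7, Scd1 (44394455 to 44407879) on chromosome 19, Elovl6 (129532355 to 129638495) on chromosome 3 and Acacb (114146535 to 114250761) on chromosome 5. All 10 are annotated as protein-coding.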

How the data were processed

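Liver RNA-seq of 6 control and 6 SAP samples was read from 1 table of 55487 rows and 12 sample columns, 0 of which were left out. Its deposited values were taken to be TPM, inferred from totals between 993412 and 995793 per library and from low values that share no common step, since no header or label names the unit. The submitters' processing notes name edgeR without version or role. Aligner, build and annotation: not given in the sources used here. Because TPM does not retain sequencing depth, the depth is unknown and counting intervals were not made.

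limma 3.58.1 (R 4.3.3, trend) was fitted to log2(TPM + 1) with group as the only term, for 11344 genes at 1 TPM or more in 6 or more libraries, two-sided, with Benjamini-Hochberg adjustment over all of them at 0.05. Where rows shared a symbol (120 repeats), the row of highest median took the symbol. The repeats were kept as rows of their own, and any that passed the filter were counted among the genes tested. Ratios and relations used exact permutation tests in scipy 1.17.1, and figures matplotlib 3.10.9. The fit was tested on simulated data. Members and lists were chosen with earlier results of these data known. All 10 members are described, and of each list the 3 tested genes with the smallest adjusted p, ratio partners, and others said to be chosen after their values were seen. Genes not past the threshold are examples. Alternatives were all rows unfiltered, a minimum mean of 5 TPM, a pseudocount of 0.1, quantile normalization, TMM-like scaling (30% and 5% trimmed), rescaling outside the acute-phase genes, limma without trend or robust, the Xist split (at 20 TPM) as a term, high Xist libraries alone, no SAP 14 and control 5, and each library left out. List counts and list genes were put through them after the data were seen. Count tests were not run on TPM. Promoters are from RefSeq on GRCm38.p6 and positions from GENCODE M21.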

Additional observations from a re-analysis of the deposited data

How the results depend on the processing

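All 10 members were lower and past the threshold in each of the 23 alternative settings, 230 values in all, with limma adjusted p at most 0.0359 (Elovl5, high Xist libraries). The count of genes lower in SAP was 1213 and of genes higher 6275 with rescaling outside the acute-phase genes, and 1830 were lower in the high Xist libraries alone. Of 105 ratio values under alternatives 99 kept their call; the other 6 were in the high Xist libraries, where 5 against 2 cannot give an exact p under 0.0952. List genes kept their call in 695 of 733 values. Slc25a1, the citrate carrier gene, was lower (-0.34) but 0.0393 with quantile normalization and 0.0770 with the acute-phase rescaling. Usf2 was not past the threshold with that rescaling (-0.04).

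Counts of list genes moved with the settings, and those of higher genes were small. For SREBP control (2) the higher genes were 1 with no filter, a pseudocount of 0.1 or no trend, and 1 to 2 with a library left out. They were 3 with TMM-like scaling or in the high Xist libraries, 6 with quantile normalization and 10 with the acute-phase rescaling. For citrate and NADPH supply (2) they were 1 with no filter or a mean of at least 5 TPM, 3 with quantile normalization, 4 with the rescaling and 1 to 2 with a library left out. For elongation partners (0) they were 1 with no filter or quantile normalization and 3 with the rescaling, where 4 were lower. For carboxylase control (1) they were 0 with no filter, 2 with quantile normalization, TMM-like scaling or without SAP 14 and control 5, 3 with the rescaling (3 lower), and 0 to 2 with a library left out. For insulin signalling (0) they were 1 with quantile normalization, TMM-like scaling, high Xist libraries or without SAP 14 and control 5, 5 with the rescaling, and 0 to 1 with a library left out. For sterol synthesis (1) they were 0 with no filter, in the high Xist libraries (1 lower) and without SAP 14 and control 5, and 4 with the rescaling. Causes were not tested. Without depth, the error of low values such as Scd2 and G6pdx cannot be given.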

Other observations

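The arrangement of controls 5, 6 and 8 as the 3 highest was also found in 11 of 20 sterol synthesis genes, among them Sqle, Fdps and Idi1, and in 6 of 14 genes for citrate, acetyl-CoA and NADPH supply, among them Acss2, Pgd and Idh1. It was found in 0 of 15 genes for SREBP and liver X receptor control and 2 of 12 elongation and desaturation partners. Carboxylase control had 2 of 11 (Prkag1 and the member Acacb) and insulin and sugar signalling 1 of 13, against 5.17% of all genes tested. Apart from Acacb, in which the arrangement was first seen as a member, these genes were read after it had been seen in the members. No cause was tested.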
